A study of Avicennia germinans with 18 samples.

Results

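Of the 29854 transcripts whose identifiers begin with Ag_, 256 were higher in every humid-forest library than in every arid-forest library in each of the 3 organs sampled (leaf, stem and root), and the 150 with the widest separation are described here. They were chosen by the measured difference between forests itself. For each organ, the lowest of the 3 humid levels was compared with the highest of the 3 arid levels as d, the log2 of the ratio of these levels after adding 0.5 CPM. A transcript was kept when d was above 0 in all 3 organs, and the kept transcripts were ranked by the smallest of their 3 values of d, called the gap below. CPM are reads of a transcript per M reads of its library, with M for mega. The forest difference of the members is therefore a description of how they were chosen and carries no test.

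Avicennia germinans is the black mangrove, a tree of tropical tidal shores. Its roots keep out much of the salt of the soil water and its leaves secrete salt through glands, so that water uptake and salt balance are linked in all organs. Under limited fresh water, plants generally adjust transport, osmolyte production, cell wall formation and growth through many genes at the same time.

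The seedlings had germinated and grown in the field in 2 forests, named humid and arid, that contrasted in freshwater supply, salt, sunlight and temperature. Each group of libraries holds 1 organ of 3 seedlings from 1 forest: humid leaf, humid stem, humid root, arid leaf, arid stem and arid root. All 6 seedlings had spent 72 hours in pots of mangrove soil of 3 L, shaded and well watered, before sampling, the arid group included. Genotype, family and age beyond the seedling stage are not given in the labels, and origin, site and 3 seedlings per forest cannot be told apart. Libraries held 3.07 to 23.7 M reads, and a transcript without a read could still lie at up to 0.127 to 0.979 CPM (3 counts, counting error only). Gene names for the identifiers were not used here, so the members' functions and the defining markers of each organ cannot be given. By the named-transcript rule, 4 members are given by identifier and the others by rank, count and range. The tissue is bulk, so fewer cells of a type and less RNA per cell cannot be told apart.

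All 150 members had reads in every humid library, because a d above 0 in each organ requires it. Members took 0.618% to 0.801% of the reads of humid leaves and 0.345% to 0.355% of the reads of arid leaves. In stems the shares were 0.732% to 0.798% in the humid and 0.253% to 0.294% in the arid forest. In roots they were 1.04% to 1.17% in the humid and 0.444% to 0.561% in the arid forest. Roots thus gave the members the largest share of reads in both forests. The 10 most abundant members made up 48.5% of the summed humid level, and 18 members had a humid mean above 100 CPM. Averaged over all 18 libraries, the median member was at 15.8 CPM (quartiles 5.22 and 35.9, range from 0.564 to 714). The 27608 Ag_ transcripts that passed the filter on low counts had a median of 11.9 CPM and quartiles of 3.04 and 34.4. All 150 members passed that filter.

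**Figure D1:**
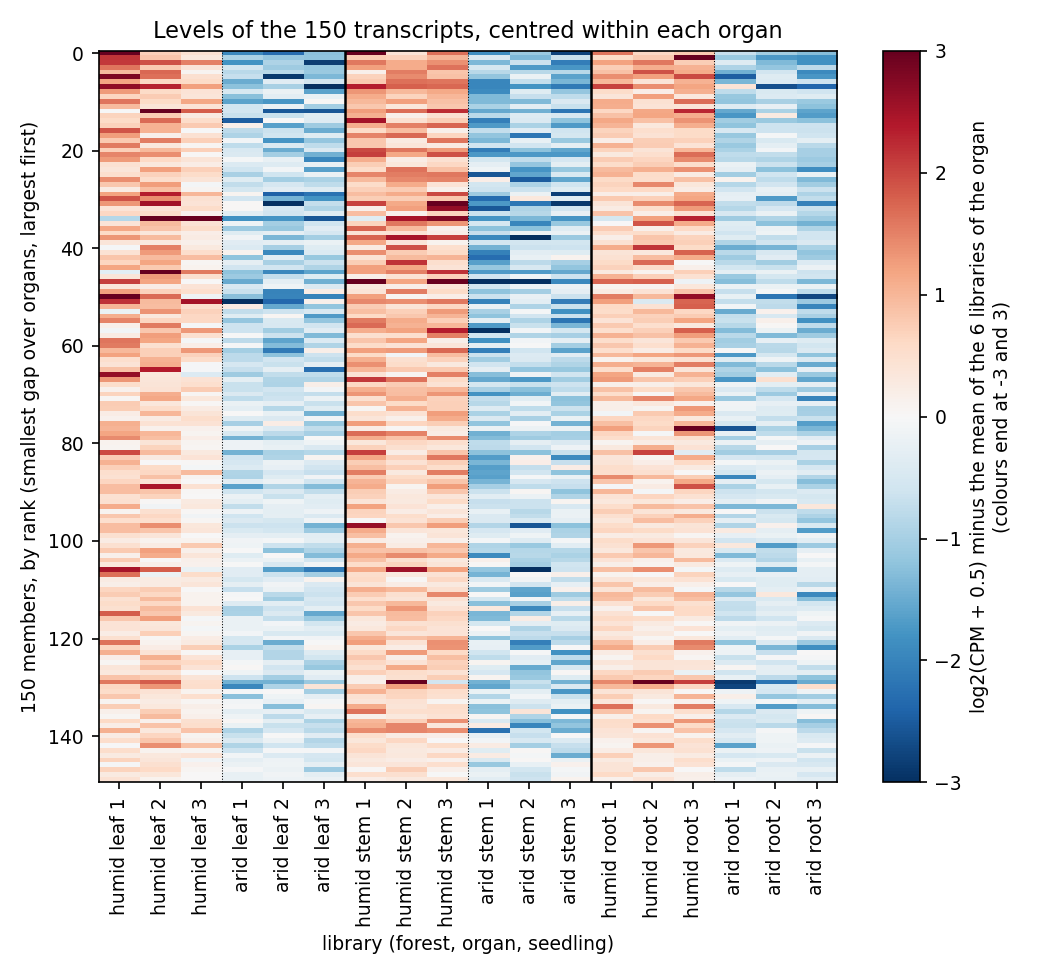
Each row is 1 of the 150 members, ordered by the gap, and each column is 1 library. Colour shows log2(CPM + 0.5) minus the mean of the 6 libraries of the same organ. Every humid column is above every arid column within an organ because the members were chosen so, and the contrast fades from rank 1 to rank 150.

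The separation of the members was wide for a few and narrow for most. The gap was 1.32 for the member of rank 1, 0.58 at rank 10, 0.29 at rank 50 and 0.15 at rank 100. The member just inside the limit, of rank 150, had a gap of 0.0869, and the transcript just outside it, of rank 151, had 0.0866. These 2 values are close to equal, so the limit of 150 does not mark a break. Leaves set the smallest d for 72 members, roots for 45 and stems for 33.

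The member of rank 1 was Ag_41770. In roots it was at 145, 73.1 and 81.6 CPM in humid seedlings 1, 2 and 3 and at 29.0, 22.5 and 19.3 CPM in arid seedlings 1, 2 and 3. The humid root mean was 100.1 ± 39.6 CPM and the arid mean 23.6 ± 4.93 CPM (SD, n = 3 each), a 4.24-fold ratio. In stems it was at 94.3, 9.49 and 23.2 CPM in the humid and at 1.61, 3.01 and 0.599 CPM in the arid seedlings. Humid seedling 1 stood well above the other humid seedlings there, as it also did in leaves. Leaf levels were 46.7, 3.50 and 2.87 CPM in the humid seedlings and 0.135, 0 and 0.536 CPM in the arid ones, the latter from 1, 0 and 9 reads. The groups did not overlap in any organ, and the arid minus humid difference of log2(CPM + 0.5) was -3.64 for leaf, -3.81 for stem and -2.01 for root.

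The member of rank 2, Ag_5085, was a low-level transcript. Its root levels were 4.42, 5.22 and 32.1 CPM in the humid and 1.02, 0.494 and 0.438 CPM in the arid seedlings. Humid seedling 3 alone raised the humid root mean to 13.9 ± 15.8 CPM (SD, n = 3). Leaf levels were 9.43, 3.50 and 2.32 CPM in the humid and 0.673, 0.509 and 0.476 CPM in the arid seedlings. In stems it was at 1.64, 1.56 and 2.07 CPM in the humid and at 0.420, 0 and 0.300 CPM in the arid seedlings, from 6, 0 and 5 arid reads. The arid stem level is thus close to the counting limit, while the humid levels of all 3 stems lie above it. On the log2(CPM + 0.5) scale the arid minus humid difference was -2.20 for leaf, -1.65 for stem and -3.11 for root.

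**Figure D2:**
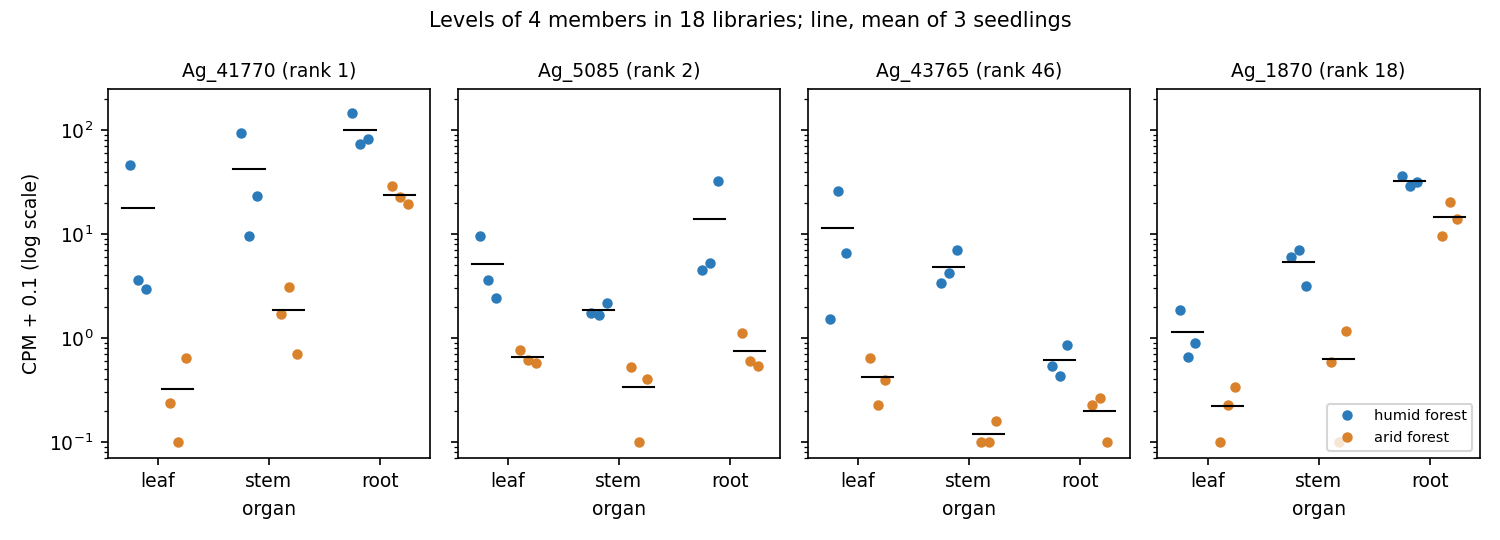
CPM plus 0.1 on a log axis for 4 members in leaf, stem and root libraries of the humid (blue) and arid (orange) forest. Points are single seedlings and lines are means of 3. Ag_41770 and Ag_1870 were highest in roots in both forests. Ag_43765 had its highest means in leaves, but its leaf exceeded its stem in only 4 of 6 seedlings and that difference was not called (edgeR adjusted p 0.072).

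The 8 members of ranks 3 to 10 spanned a broad range of levels. In roots their humid levels lay between 4.53 and 211 CPM and their arid levels between 0.219 and 40.8 CPM. Humid leaf levels of these 8 reached from 0.928 to 55.1 CPM, against 0 to 15.7 CPM in arid leaves. In stems the range was 0.491 to 34.7 CPM in the humid and 0 to 9.68 CPM in the arid forest. Their median arid minus humid difference of log2(CPM + 0.5) was -1.84 for leaf, -2.47 for stem and -2.14 for root.

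Over all 150 members the median arid minus humid difference of log2(CPM + 0.5) was -1.19 in leaves, with a range from -4.13 to -0.25. In roots it was -1.23, with a range from -4.38 to -0.33. Among all Ag_ transcripts tested, the medians were -0.00 in leaves and 0.04 in roots. In stems the members had a median of -1.54 and a range from -6.12 to -0.34. There the median of all Ag_ transcripts tested was itself at -0.43, so that the members lay about as far below the bulk of transcripts in stems as in the other organs. With the trimmed mean of M-values (TMM) scaling of edgeR the stem median of all Ag_ transcripts tested was -0.01, and the members had medians of -1.16 for leaf, -1.10 for stem and -1.17 for root. The mean difference stayed below 0 in all 3 organs for 148 of the 150 members under that scaling.

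**Figure D3:**
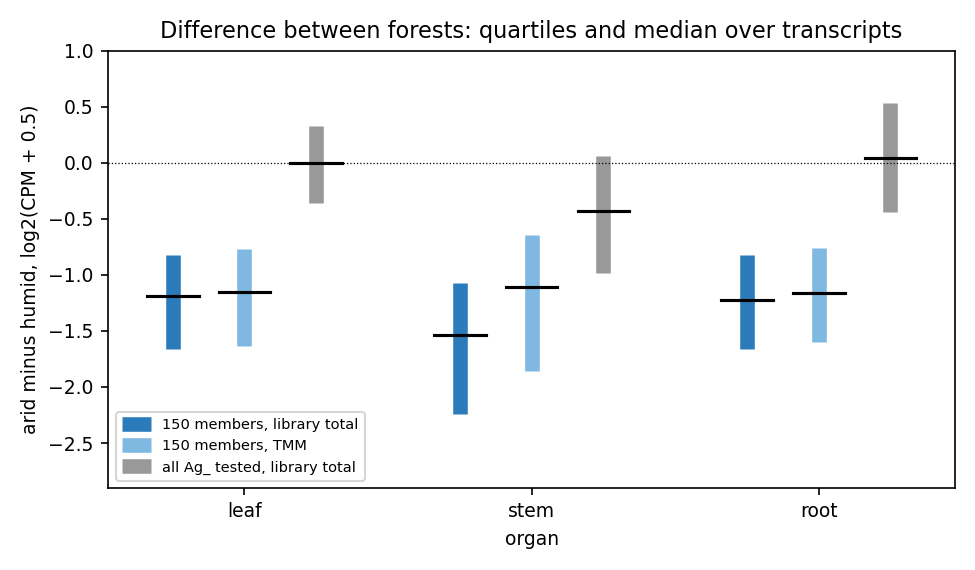
Bars span the quartiles over transcripts of the arid minus humid difference of log2(CPM + 0.5) in each organ and black lines are medians. The 150 members are shown with library totals (dark blue) and with TMM scaling (light blue), beside all 27608 tested Ag_ transcripts with library totals (grey). In stems the grey median is at -0.43 and the members move from -1.54 to -1.10 with TMM scaling.

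The size of the difference varied between members and between organs. It exceeded 1 log2 unit, a factor of 2, in all 3 organs for 69 members (52 with TMM scaling). It exceeded 2 log2 units, a factor of 4, in all 3 for 9. For 22 members it stayed within 1 log2 unit in every organ. Within a member, the largest and the smallest difference over the organs lay a median of 0.75 log2 units apart (quartiles 0.47 and 1.27), and more than 2 units apart for 11 members. Stems had the largest of the 3 differences for 83 members, roots for 38 and leaves for 29. That order changed with TMM scaling, under which roots had the largest difference for 61 members, stems for 47 and leaves for 42. Across the 150 members, which share seedlings and library scaling, the differences correlated with Pearson's r of 0.63 between leaf and stem, 0.57 between leaf and root and 0.35 between stem and root.

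No member was at 0 reads in all 9 arid libraries, but 39 were at 0 in at least 1 of them. In arid stems 5 members had no read in any of the 3 libraries, while in arid leaves and arid roots no member did. Members with at most 3 reads over the 3 arid libraries of an organ numbered 14 in stems, 6 in leaves and 1 in roots. Single arid libraries had 33 to 44 members under 10 reads in leaves, 33 to 39 in stems and 10 to 26 in roots. The median member had 1798 reads over the 9 humid and 987 reads over the 9 arid libraries, and 27 members had fewer than 10 reads in at least 1 humid library. These reads are not scaled, and the arid libraries together held more reads than the humid ones. The difference was thus mostly one of degree, with reads present on both sides, though some arid levels rested on fewer than 10 reads.

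Single libraries often set how narrow the separation was. Humid leaf 3, the deepest library, held the lowest humid leaf level for 94 of the 150 members, against 30 in humid leaf 1 and 26 in humid leaf 2. In stems the lowest humid level lay in humid stem 2 for 62 members, in humid stem 3 for 47 and in humid stem 1 for 41. The highest arid level lay in arid leaf 1 for 58 members, in arid stem 2 for 64 and in arid root 2 for 66. The number kept by the rule, 256 with all seedlings, was between 449 and 707 when any 1 of the 6 was left out. It was 541, 482 and 648 without humid seedlings 1, 2 and 3 and 707, 684 and 449 without arid seedlings 1, 2 and 3. Fewer libraries make the condition easier to meet, so each of these counts is higher by construction.

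The rule was met in every organ by 256 of the 29854 Ag_ transcripts, or 0.858%. The same condition in a single organ was met by 8.25% in leaves, 25.5% in stems and 11.8% in roots. Every arid library exceeded every humid one in all 3 organs for 98 Ag_ transcripts, or 0.328%, and in single organs for 5.3% in leaves, 3.0% in stems and 12.1% in roots. With TMM scaling the shares in stems were 12.4% lower and 9.79% higher in the arid forest, so the excess in stems was much smaller. In leaves they were 7.34% and 6.83%, and in roots 10% and 14.9%. With library totals, transcripts that met the rule in 2 organs met it more often in the remaining one than all 29854 Ag_ transcripts. The latter include those that did not pass the filter on low counts. Of 1013 lower in arid leaves and stems, 25.3% were also lower in arid roots. Of 587 lower in arid leaves and roots, 43.6% were also lower in arid stems, and of 1194 lower in arid stems and roots, 21.4% were also lower in arid leaves. The 3 organs came from the same seedlings, so the organs are not independent readings of the forest.

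These counts depended on how the libraries were scaled. With library totals, as the rule has it, 256 Ag_ transcripts were lower and 98 higher in the arid forest in every organ. With TMM factors the numbers were 122 lower and 297 higher, with DESeq2 size factors 148 and 257, and with upper quartile factors 170 and 193. The larger side was thus the lower one with library totals and the higher one with each of the other 3 scalings. TMM factors averaged above 1 in humid stems, where they were 1.23, 1.21 and 1.17, and lay at 0.981, 0.856 and 0.787 in arid stems 1, 2 and 3. Among the 150 members, 86 were still separated in all 3 organs with TMM factors, 93 with DESeq2 size factors and 113 with upper quartile factors. With TMM factors 130 members stayed separated in leaves and 145 in roots, but only 97 in stems. All 4 scalings kept 83 members. Both top-ranked members and all 8 of ranks 3 to 10 were among these 83.

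**Figure D4:**
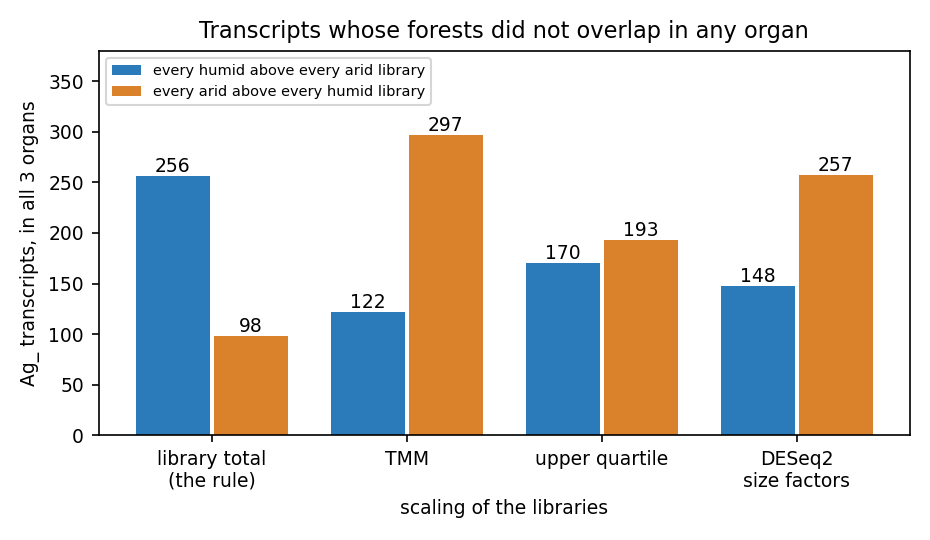
Number of Ag_ transcripts for which the 3 humid and 3 arid libraries did not overlap in any of the 3 organs, with humid above arid (blue) or arid above humid (orange), under 4 scalings of the libraries. Library totals gave 256 against 98 and TMM gave 122 against 297.

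Calls between forests by the quasi-likelihood test of edgeR used an adjusted p under 0.05 by the Benjamini-Hochberg method over 40897 transcripts. Since the rule used the same contrast, the following counts are read only beside their background. In stems 19 of the 150 members were called lower in the arid forest, against 0.71% of the tested Ag_ transcripts. In roots 13 were called lower, against 0.279%. In leaves no member was called, nor was any other Ag_ transcript (0.0%). By DESeq2 the numbers were 32 for leaf, 61 for stem and 53 for root, beside 0.92%, 4.96% and 2.23% of the tested Ag_ transcripts. The stem count by edgeR was 42 without arid stem 2 and 3, 6, 3, 5 and 9 without humid stems 1, 2 and 3 and arid stems 1 and 3. Leaving out humid roots 1, 2 and 3 gave root counts of 4, 5 and 0, and leaving out arid roots 1, 2 and 3 gave 1, 10 and 1.

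The rule never compared 1 organ with another, but its root condition was not independent of organ type. None of 215 leaf-typical and 92 stem-typical transcripts, described below, met that condition, while 36 of 60 root-typical ones did. All of these remain in the background of tested Ag_ transcripts. The organ differences of the members are therefore given beside that background, and how far the rule set them was not tested. The members leaned towards the roots. Between stem and root, 42 of the 150 members were called by edgeR with both forests averaged, and all 42 were higher in roots (6 libraries per organ). Over all tested Ag_ transcripts, 5.73% were called higher in root than in stem and 7.66% higher in stem than in root. Between leaf and root, 46 members were called, 41 higher in roots and 5 higher in leaves. The background there was 9.36% higher in root and 14.1% higher in leaf. Stem and root values of the members differed by a median log2 fold change of -0.57 (stem minus root, quartiles -1.31 and -0.19), and leaf and root values by -0.35 (quartiles -1.05 and 0.12). The medians over all tested Ag_ transcripts were 0.01 and 0.06. Members called between stem and root differed by a median of 2.17 log2 units, and 22 of them by more than 2.

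Between leaf and stem fewer members were called. There 18 were called by edgeR, 14 higher in leaves and 4 higher in stems. Over all tested Ag_ transcripts 5.72% were called higher in leaf and 3.53% higher in stem. The median log2 fold change of the members was 0.23 (leaf minus stem), against 0.07 over all tested Ag_ transcripts. The count was 11 without arid leaf 3, 9 without humid stem 1 and 11 without humid stem 3. DESeq2 called 32 members in either direction, a share near its background of 17.2%. By edgeR, 20 members were called higher in root than in both other organs, against 3.21% of the tested Ag_ transcripts, and 63 in at least 1 of these comparisons, against 11.9%. No organ comparison called 82 of the 150 members, where 69.8% of the tested Ag_ transcripts were called in none.

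Calls within each forest also leaned towards roots. The members were chosen with the root libraries of both forests, so neither forest is separate from that choice. In humid libraries 17 members were called between stem and root by edgeR, all higher in root, against a background of 3.4% higher in root and 4.65% higher in stem. Between humid leaf and root 14 were called, 13 higher in root and 1 higher in leaf, with 5.02% and 9.85% of all tested Ag_ transcripts. In arid libraries 15 members were called between stem and root, all higher in root, against 1.02% higher in root and 0.605% higher in stem. Between arid leaf and root 13 were called, all higher in root, against 2.09% higher in root and 2.5% higher in leaf. Across the 150 members, the leaf minus root log2 fold changes in humid and in arid libraries correlated with Pearson's r of 0.78. That r was 0.61 for stem minus root and 0.52 for leaf minus stem. Values over all tested Ag_ transcripts are not given, so these do not set the members apart. Roots held the highest humid mean for 91 members, stems for 32 and leaves for 27. Of the tested Ag_ transcripts 30.7% were highest in root, 42.8% in stem and 26.6% in leaf. With TMM scaling the members' numbers were 93 for root, 14 for stem and 43 for leaf, so that the order of stem and leaf was reversed, beside 32.4%, 30.1% and 37.5% of the tested Ag_ transcripts. In arid libraries roots were highest for 106 members, beside 43.5%, and with TMM scaling for 95, beside 34.3%.

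**Figure D5:**
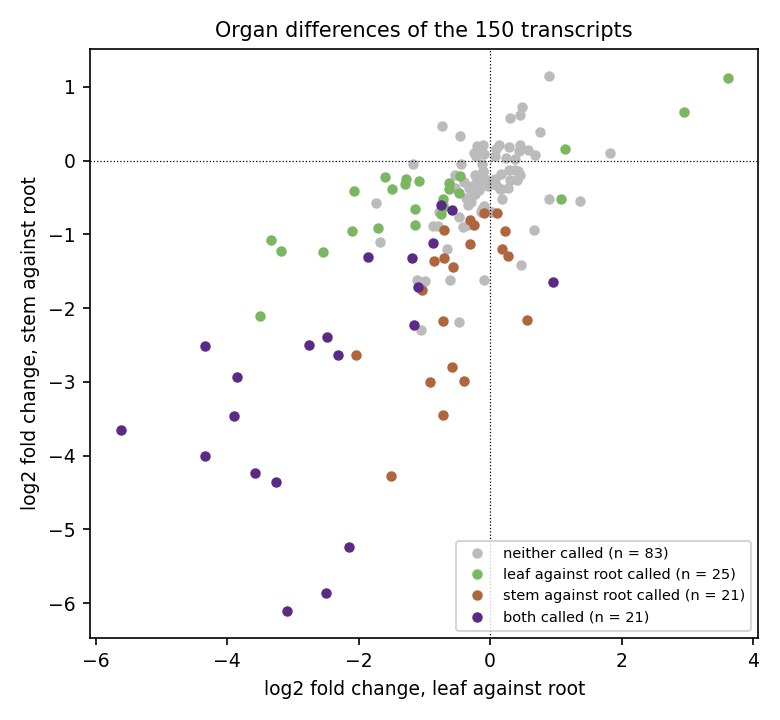
Log2 fold change of each of the 150 members between leaf and root (horizontal) and between stem and root (vertical), both forests averaged, coloured by the edgeR calls. All 42 members called between stem and root lie below 0 on the vertical axis, and 41 of the 46 called between leaf and root lie left of 0.

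Shoot-typical transcripts were present at unequal levels in the root libraries and are given beside this result. A list of 215 Ag_ transcripts reached 50 CPM or more in humid leaves with a humid root level 20-fold lower or below that. Their summed level was 0.061% to 0.0773% of reads in humid roots and 2.89%, 0.192% and 1.23% in arid roots 1, 2 and 3. Every humid root was above every arid root for 0 of the 215, so none met the rule, and for 120 every arid root was above every humid root. For 92 transcripts defined likewise on stems the numbers were 0 and 64. A list of 60 Ag_ transcripts reached 50 CPM or more in humid roots and 20-fold lower levels in both other humid organs. For 36 of the 60 every humid root exceeded every arid root, and none was a member. These lists were defined on the humid libraries, and their part in the direction of the members towards roots was not tested. Arid root 1 was the root library highest in shoot-typical transcripts. Without it in the fit, 39 members were called between stem and root, all higher in root. Between leaf and root 35 were called, 31 of them higher in root. The members were still those chosen with arid root 1 included, so these counts cannot show its part in their choice.

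Counts of called members moved with other single libraries. Between leaf and root edgeR called 28 members without humid leaf 3 and 30 without either humid root 3 or arid root 2. Between stem and root the count lay between 30 and 51 over the 12 libraries left out in turn. With both forests averaged, no member was called higher in stem than in root in any of the 23 edgeR fits. With humid libraries alone, 1 of 19 called members was higher in stem when humid leaf 1 was left out. DESeq2, with both forests averaged, called 1 member higher in stem and 53 higher in root, against 11.6% and 9.14% of the tested Ag_ transcripts. Among the 83 members kept by all scalings, 26 were called higher and 0 lower in root than in stem, and 29 were called higher and 3 lower in root than in leaf.

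The member most clearly higher in root than in leaf was Ag_1870, of rank 18. Its root levels were 36.6, 29.0 and 32.0 CPM in the humid and 9.40, 20.4 and 13.9 CPM in the arid seedlings. In leaves it was at 1.75, 0.560 and 0.802 CPM in the humid and at 0, 0.127 and 0.238 CPM in the arid seedlings. Stem levels were 5.89, 7.0 and 3.06 CPM in the humid and 0.490, 0 and 1.08 CPM in the arid seedlings. In both forests the stem mean lay between those of the other organs. Stem exceeded leaf in 5 of 6 seedlings, and leaf against stem was not called (edgeR adjusted p 0.057). The root of each of the 6 seedlings exceeded its own leaf, and the log2 fold change of leaf against root was -5.62 (SE 0.64, edgeR adjusted p 5.5e-05). Against stem, root was higher in 6 of 6 seedlings as well, with a stem minus root log2 fold change of -3.65 with an SE of 0.57 (adjusted p by edgeR 0.0016).

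The member most clearly higher in leaf than in root was Ag_43765, of rank 46. Its leaf levels were 1.43, 26.2 and 6.5 CPM in the humid and 0.539, 0.127 and 0.298 CPM in the arid seedlings. In roots it was at 0.442, 0.326 and 0.754 CPM in the humid and at 0.127, 0.165 and 0 CPM in the arid seedlings, from at most 5 reads in any library. Leaf exceeded root in 5 of 6 seedlings, and the log2 fold change of leaf against root was 2.95 (SE 0.73, edgeR adjusted p 0.0091). In stems it was at 3.27, 4.12 and 6.92 CPM in the humid seedlings, while the 3 arid stems together gave 1 read. With arid libraries alone the leaf minus root log2 fold change was 1.49 and was not called (edgeR adjusted p 0.53), and over all other alternatives for the averaged value the adjusted p lay between 0.0011 and 0.035.

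Both top-ranked members also differed between organs. Ag_41770 was higher in root than in leaf in 6 of 6 seedlings, with a leaf minus root log2 fold change of -4.34 with an SE of 0.84 (adjusted p by edgeR 0.0017). Its stem minus root log2 fold change was -2.51 with an SE of 0.74 (adjusted p by edgeR 0.037), in 6 of 6 seedlings. That call was lost under some alternatives, which reached an adjusted p of 0.09. Ag_5085 was higher in root than in stem in 6 of 6 seedlings, with a stem minus root log2 fold change of -2.18 with an SE of 0.65 (adjusted p by edgeR 0.04, up to 0.18 under alternatives). Between its leaf and root the log2 fold change of -0.72 with an SE of 0.62 (adjusted p by edgeR 0.48) was not called, and root exceeded leaf in 3 of 6 seedlings.

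The 20 members called higher in root than in both other organs included members of moderate root level. Their median humid mean was 46.5 CPM in roots, 13.2 CPM in leaves and 9.59 CPM in stems, and the median arid mean was 18.2 CPM in roots, 1.19 CPM in leaves and 1.54 CPM in stems. Their median arid minus humid difference of log2(CPM + 0.5) was -1.64 for leaf, -1.75 for stem and -1.66 for root. For the 87 members not called higher in root in either comparison the corresponding medians were -1.17, -1.44 and -1.11. The rule used these differences for both sets, so they are given without a test.

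The rule covered only identifiers beginning with Ag_. Among the 17967 identifiers with the prefix non_cod, 66 (0.367%) were higher in every humid than in every arid library in all 3 organs, and 20 (0.111%) showed the opposite. The 66 had a median arid minus humid difference of log2(CPM + 0.5) of -1.08 for leaf, -1.78 for stem and -1.41 for root. The medians over all 13289 tested non_cod transcripts were -0.03, -0.49 and -0.01. Of these 66, 48 had a gap at least as large as that of the last member. With TMM factors 46 non_cod transcripts were lower and 47 higher in the arid forest in every organ, so that the excess of lower ones was not found under that scaling.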

How the data were processed

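RNA of leaves, stems and roots of 6 seedlings was sequenced, per the labels, as read pairs on an Illumina Genome Analyzer IIx. The authors deposited whole-number counts of reads for each transcript, not normalized, as 1 table and again as 18 single-library files with equal values. The table is named as uniquely mapped reads. Bowtie 0.12.2 and edgeR are named in the submitters' processing notes, and the reference and the counting program were not given in the sources used here. Columns were matched to samples by name.

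CPM used library totals unless another scaling is named. Members and lists were chosen with earlier results of these data known. Organ differences were tested on the deposited counts in edgeR 4.0.16 (R 4.3.3) by quasi-likelihood, with TMM factors, a filter by group (minimum count 10, minimum total count 15; 40897 transcripts kept) and 1 mean per group over 18 libraries (12 residual degrees of freedom). P-values were adjusted by the Benjamini-Hochberg method over all tested transcripts, and DESeq2 1.42.0 was an alternative. The organ fit was run on simulated counts with known changes in leaf. These held no seedling pairing and no choice of members, so they do not bear on the member counts. Libraries sharing forest and number come from 1 seedling by the design text. Their deviations from group means correlated with a median r of 0.208 over 18 pairs of libraries (range -0.075 to 0.343). Transcripts were named by a rule: the 2 members with the largest gap, and the member with the smallest adjusted p in each direction between leaf and root. Plots used matplotlib 3.10.9.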

Additional observations from a re-analysis of the deposited data

How the results depend on the processing

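Counts of members are by edgeR unless DESeq2 is named. With humid or arid libraries alone, each with fewer samples, 4 and 3 members were called between leaf and stem, 14 and 13 between leaf and root and 17 and 15 between stem and root. Leaving out each library in turn gave 9 to 27, 28 to 40 and 30 to 51. DESeq2 called 32 between leaf and stem. In the paired fit, which added a replicate block for each seedling, the counts were 25, 49 and 44, and no count moved by over 1.5 times. No seedling block was fitted for the forest difference, because each seedling belongs to 1 forest. Ag_43765 had a leaf minus root log2 fold change of 1.49 with arid libraries alone.

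The number kept by the rule was 122 with TMM, 170 with upper quartile and 148 with DESeq2 scaling, and between 279 and 707 without single libraries or seedlings. Of the 150 members, TMM kept 86 and DESeq2 size factors 93. The median forest difference in stems was -1.10, -1.26 and -1.15 under these scalings, -1.80 with a pseudocount of 0.1 CPM and -1.18 with 2 CPM. With 2 CPM it was -0.88 in leaves and -1.0 in roots. Members called lower in the arid forest numbered 32, 61 and 53 in leaf, stem and root by DESeq2, and 0 to 1, 3 to 42 and 0 to 10 by edgeR without single libraries. Of the remaining values, 142 stayed within the limits used, which for a count is 1.5 times the main one, and none changed sign. The cause of these shifts was not tested. Levels near 1 CPM rest on few reads.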

Other observations

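The 106 Ag_ transcripts that met the rule but ranked below the 150 members had smaller forest differences. Their median arid minus humid difference of log2(CPM + 0.5) was -0.69 for leaf, -1.20 for stem and -0.86 for root. All 4 scalings kept 22 of the 106. Among the members, all 4 scalings kept 41 of the first 50 ranks and 11 of the last 50 ranks.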
